A study of Mus musculus with 9 samples.

Results

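Gene expression after R-spondin 1 (Rspo1) was compared with untreated culture in sorted cells of differentiated mouse bile duct organoids, taking the tdTomato-positive and the tdTomato-negative cells of the treated organoids together. All 9 libraries of the study entered: 3 of treated tdTomato-positive cells (Rspo1-positive), 3 of treated tdTomato-negative cells (Rspo1-negative) and 3 of untreated tdTomato-negative cells (untreated). Each group has 1 library at passage 5, 1 at passage 6 and 1 at passage 10 of an organoid line from a single male animal of mixed genetic background with the genotype Axin2CreERT2+/-; R26-LSL-tdTom+/-. In this genotype cells that express the Wnt target Axin2 make a Cre recombinase which, once tamoxifen is present, switches on the red reporter tdTomato. In all groups expansion took 2 to 4 days and differentiation 11 days, and all received 3 uM dexamethasone and 500 nM 4-hydroxytamoxifen in the last 24 h. The 6 treated libraries also received 100 ng/ml Rspo1 in those 24 h, and the 3 untreated libraries did not. No tdTomato-positive cells of untreated organoids were sampled, so for the positive gate the treatment and the sort cannot be told apart. The negative gate is likewise a sorted part of the treated organoids, left after removal of the tdTomato-positive cells. Selection by the sort and treatment therefore cannot be fully told apart there or in the joint comparison either. The 9 libraries come from cultures of 1 animal, and the p-values measure the spread between libraries, not between animals. At each passage the 2 treated libraries are 2 gates of treated organoids. The 6 treated libraries therefore cannot be counted as 6 independent cultures, although the fit takes each as a library of its own.

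R-spondins are secreted proteins that bind the receptors Lgr4, Lgr5 and Lgr6 and the membrane ubiquitin ligases Rnf43 and Znrf3. Those ligases remove Frizzled receptors from the cell surface, and their inhibition by R-spondin leaves more receptor to answer Wnt ligands. The signal stabilises beta-catenin, which enters the nucleus and acts with TCF and LEF factors on target genes such as Axin2, Sp5, Lgr5 and Ascl2. In liver, Wnt signalling is known for setting the gene programme of hepatocytes around the central vein, and R-spondin is a standard component of medium in which duct organoids are expanded.

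Promoter sequences of 5 genes that rose in all 6 treated libraries are shown, because these genes stand for the Wnt targets, the mitosis genes and the DNA replication genes described below. Axin2 and Sp5 rose most among genes with a mean log2 CPM above 2, Lect2 is a liver Wnt target, Espl1 encodes the mitotic protease separase and Mcm5 encodes a subunit of the replicative helicase. Each run holds the 250 bases before the start site that RefSeq gives for the gene (build GRCm38.p6), on the strand of the gene. Capitals mark ATCAAAG, a core of the TCF/LEF motif, in Axin2, Sp5 and Lect2, TTTGAA, the cell cycle homology region (CHR) element of mitotic promoters, in Espl1, and TTTCCCGC or TTTGGCGC, forms of the E2F motif, in Mcm5, with each motif sought on both strands. The positions are chr11:108920099-108920348 (plus strand) for Axin2, chr2:70474673-70474922 (plus strand) for Sp5, chr13:56548539-56548788 (minus strand) for Lect2, chr15:102296043-102296292 (plus strand) for Espl1 and chr8:75109259-75109508 (plus strand) for Mcm5.
Axin2: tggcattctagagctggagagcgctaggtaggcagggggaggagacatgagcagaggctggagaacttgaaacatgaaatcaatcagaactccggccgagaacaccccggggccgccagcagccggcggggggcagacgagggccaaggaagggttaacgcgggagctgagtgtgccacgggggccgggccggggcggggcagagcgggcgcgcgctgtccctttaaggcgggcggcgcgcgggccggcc
Sp5: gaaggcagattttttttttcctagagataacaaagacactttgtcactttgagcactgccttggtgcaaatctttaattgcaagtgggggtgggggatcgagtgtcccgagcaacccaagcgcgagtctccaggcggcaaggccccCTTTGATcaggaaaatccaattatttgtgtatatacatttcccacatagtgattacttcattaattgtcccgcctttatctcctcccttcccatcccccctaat
Lect2: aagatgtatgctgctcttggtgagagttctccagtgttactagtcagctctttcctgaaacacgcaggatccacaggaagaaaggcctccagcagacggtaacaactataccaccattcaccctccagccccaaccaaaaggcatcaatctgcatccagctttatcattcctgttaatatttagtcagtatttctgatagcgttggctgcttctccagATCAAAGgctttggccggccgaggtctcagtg
Espl1: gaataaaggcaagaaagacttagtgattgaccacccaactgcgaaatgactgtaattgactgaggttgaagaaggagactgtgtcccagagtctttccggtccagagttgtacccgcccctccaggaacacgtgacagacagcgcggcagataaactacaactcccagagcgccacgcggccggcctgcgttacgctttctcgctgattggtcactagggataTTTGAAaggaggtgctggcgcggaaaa
Mcm5: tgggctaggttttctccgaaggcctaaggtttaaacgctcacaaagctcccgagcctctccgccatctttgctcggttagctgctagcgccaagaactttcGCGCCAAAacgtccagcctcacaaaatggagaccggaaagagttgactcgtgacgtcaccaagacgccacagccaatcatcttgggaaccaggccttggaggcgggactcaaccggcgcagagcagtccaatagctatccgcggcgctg
The TCF/LEF letters stood 104 bases before the start in Sp5 and 32 bases before it in Lect2, and they were not in the Axin2 window. The CHR letters stood 27 bases before the start in Espl1, and the E2F letters 149 bases before it in Mcm5. The RefSeq table has a window of 300 bases, 250 before and 50 after the start, for 27025 gene symbols. ATCAAAG was found in a window of 1160 of these genes (4.29%), TTTGAA in 5466 (20.2%) and an E2F form in 486 (1.80%). Of the 46 mitosis genes with a window, 33 (71.7%) held TTTGAA, and of the 38 replication genes with a window 13 (34.2%) held an E2F form. Among the 14 largest falls described below, 11 genes had a window, of which 4 (36.4%) held TTTGAA and 0 the other motifs. Among the 14 largest rises 6 had a window, of which 3 held TTTGAA, 1 ATCAAAG and 0 an E2F form. Of 13 Wnt pathway and target genes that rose in all 6 treated libraries and had a window, 4 held ATCAAAG, namely Sp5, Lect2, Tnfrsf19 and Wnt5b. These matches describe letters in a window, not bound sites.

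Total counts per library ranged from 23423979 to 37351448, and between 22021 and 24578 genes had a count. All 10 duct cell markers were expressed, with a summed level of 4055 to 5061 FPKM (fragments scaled to gene length and library size) in the untreated, 3647 to 3701 in the Rspo1-positive and 4442 to 5247 in the Rspo1-negative libraries. Of the fibroblast markers 3 of 14 passed the filter on low counts, Lum was at 0 in all libraries, and the list summed to 3.55 to 8.09 FPKM. Of those 3, Reln, which encodes the matrix protein reelin, was called higher, in all 6 treated libraries (log2 fold change 1.21; edgeR adjusted p = 0.0029), a call lost without a passage block and with treatment as 1 term. The endothelial list summed to 0.552 to 1.07 FPKM with Cdh5 at 0 throughout. The immune list summed to 15.5 to 29.4 FPKM, of which Csf1r made 8.17 to 11.7, Cd68 4.22 to 19.3 and Itgam 1.12 to 2.91. Ptprc, the general marker of immune cells, had at most 5 counts in a library, Cd3e 5, Lyz2 4 and Fcer1g 13. The mesothelial list summed to 282 to 719 FPKM, of which Msln alone made 281 to 718. Msln (-0.35; edgeR adjusted p = 0.047) and Gpm6a (-1.03; edgeR adjusted p = 0.046), both on the mesothelial list, were called lower, in all 6 treated libraries, and both calls were lost under most alternatives. The hepatocyte marker list summed to 135 to 473 FPKM, of which Ttr made 124 to 465. The mitochondrial share of counts was 1.73% to 2.89% in the untreated, 1.3% to 1.63% in the Rspo1-positive and 1.14% to 1.52% in the Rspo1-negative libraries, so it was higher in the untreated libraries without overlap. The part of these differences in the results that follow was not tested.

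A total of 3730 of 17011 genes tested differed between Rspo1 and untreated cells when both gates were given equal weight and passage was a block, which is 21.9% of the genes (edgeR's quasi-likelihood F-test, Benjamini-Hochberg adjusted p under 0.05). Of these, 1417 were higher (8.33% of the genes tested) and 2313 lower (13.6%). The split depends on the scaling of the libraries: with upper-quartile scaling 1816 were higher and 1897 lower, which raises the higher share of calls from 38.0% to 48.9%. The response common to the gates was taken as the genes that were called and for which each of the 6 treated libraries lay on the same side of the untreated library of its own passage. It holds 2511 genes (14.8% of the genes tested), 1144 of them higher (6.73%) and 1367 lower (8.04%). The other 1219 called genes did not have all 6 libraries on the same side. In the common set the median rise was 0.75 and the median fall -0.67 on the log2 scale, and 129 genes rose and 36 fell by at least 2 on that scale.

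The common set was not of equal size in the gates. The 2 gates differed from each other in 398 of the 1144 risers, 238 with the larger change in the positive and 160 with the larger change in the negative gate, and in 628 of the 1367 fallers, 141 with the larger fall in the positive and 487 in the negative gate. Over all genes tested the gates differed in 6624 (38.9%). By itself the positive gate differed from untreated in 2247 genes (13.2%) and the negative gate in 6039 (35.5%), both against the same 3 untreated libraries. With an offset for GC content and length these counts were 2959 and 3828, and without a passage block 886 and 3724. The count of the positive gate was 1112 without its own library of passage 6, 1306 without that of passage 10, 1432 without that of passage 5 and 1447 without the untreated library of passage 5. The count of the negative gate was 3229 without its own library of passage 5, 3346 without that of passage 10, 3815 without the untreated library of passage 5 and 3906 without that of passage 10. When treatment was 1 term and differences between the gates counted as error, 485 genes were called, all of them in the common set, 289 higher and 196 lower. Without passage as a block 1712 genes were called. The count of 3730 fell to 1959 without the untreated library of passage 5, to 2417 without the Rspo1-positive library of passage 6, to 2185 without the untreated library of passage 10, to 1221 without passage 5 and to 1843 without passage 10. The 1144 risers had a median exonic GC content of 52.6% and the 1367 fallers of 46.0%, against 49.9% for all genes, and 1948 of the 2511 common genes were called the same way with an offset for GC content and length.

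Wnt feedback genes gave the largest rises among genes with a mean log2 CPM above 2. Axin2, a scaffold of the complex that degrades beta-catenin and a negative feedback target, had 1.32, 1.74 and 5.96 CPM (counts scaled to library size) in the untreated libraries of passages 5, 6 and 10. It had 75.7, 88.7 and 155 CPM in the Rspo1-positive and 44.4, 97.4 and 124 CPM in the Rspo1-negative libraries of the same passages. The lowest treated value thus lay above the highest untreated value, and the groups did not overlap. The joint log2 fold change was 5.14 ± 0.26 (SE; edgeR adjusted p = 7.9e-06), with 5.29 in the positive gate and 4.98 in the negative gate. Axin2 (chr11:108920349-108950783, plus strand) drives the Cre that sets the sort, and its change between the gates, 0.31, did not pass the test (edgeR adjusted p = 0.28). Gm11670, on the other strand, covers 3.80% of the Axin2 exon bases.

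Sp5, a zinc finger repressor induced by Wnt, had 0.523, 1.10 and 0.691 CPM in the untreated, 10.5, 23.8 and 31.6 CPM in the Rspo1-positive and 9.66, 17.8 and 31.2 CPM in the Rspo1-negative libraries of passages 5, 6 and 10. Its log2 fold change was 4.68 ± 0.25 (SE; edgeR adjusted p = 7.9e-06), and the gates were within 0.17 of each other (edgeR adjusted p = 0.52). Among treated libraries both Axin2 and Sp5 were lowest at passage 5 and highest at passage 10. Ascl2, a basic helix-loop-helix factor of intestinal stem cells, had 0.334 to 0.400 CPM in the untreated and 3.47 to 5.55 CPM in the treated libraries and rose by 3.73 ± 0.24 on the log2 scale (edgeR adjusted p = 1.2e-05). Tcf7, the nuclear factor TCF1 that is itself a Wnt target, had 2.55, 1.54 and 5.09 CPM in the untreated and 9.69 to 22.2 CPM in the treated libraries and rose by 2.35 ± 0.20 (SE). Of 6 nuclear Wnt factors tested the other called was Tcf7l2, at -0.57 with both gates but -0.14 in the positive and -1.0 in the negative gate, a difference between gates that passed the test (edgeR adjusted p = 0.0026).

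**Figure D1:**
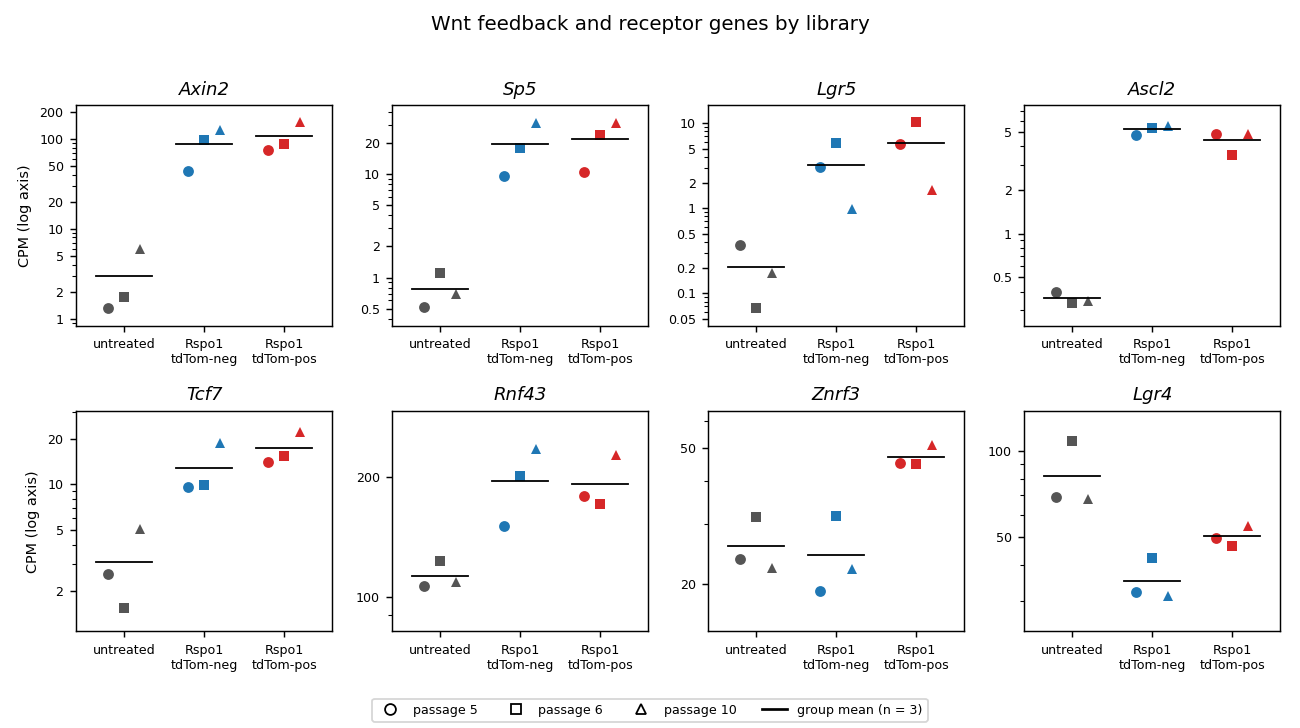
CPM on log axes of 8 Wnt pathway genes in each library, with the untreated, the Rspo1 tdTomato-negative and the Rspo1 tdTomato-positive group on the horizontal axis, symbols for the passage and a line for the mean of 3 libraries. Treated and untreated libraries do not overlap for Axin2, Sp5, Lgr5, Ascl2, Tcf7, Rnf43 and Lgr4, while for Znrf3 the negative gate overlaps the untreated values.

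A list of 9 genes held the receptors and ligases on which R-spondin acts and also Rspo1, Rspo2, Rspo3 and Rspo4. The 4 that passed the filter were Lgr4, Lgr5, Rnf43 and Znrf3. Lgr5 and Rnf43 rose and Lgr4 fell, each in all 6 treated libraries, where 8.33% of all genes tested rose and 13.6% fell. Lgr5, a receptor for R-spondin and a stem cell marker, had 2 to 12 counts in an untreated library, or 0.369, 0.0669 and 0.173 CPM, and 0.974 to 10.4 CPM in the treated libraries. It rose by 4.18 ± 0.48 on the log2 scale (SE; edgeR adjusted p = 0.00019), with passage 10 lowest in both treated groups. With so few untreated counts, Lgr5 passed the filter only through the treated libraries, and the size of its rise rests on that low baseline. Lgr4, the widely expressed R-spondin receptor, had 69.0, 108 and 68.2 CPM in the untreated, 49.8, 46.5 and 54.8 CPM in the Rspo1-positive and 32.2, 42.2 and 31.1 CPM in the Rspo1-negative libraries. Its log2 fold change was -0.93 ± 0.13 (SE; edgeR adjusted p = 0.00082), and it was lower in the negative than in the positive gate. On the FPKM scale, which allows a comparison between genes, Lgr4 had a level of 13.2 to 21 in untreated cells and 6.11 to 10.5 in treated cells, and Lgr5 had a level of 0.0137 to 0.0760 and 0.202 to 2.17. Lgr4 therefore had the higher level of the receptors in every library, treated libraries included. Lgr6 was below the filter, with at most 14 counts in a library. Rnf43 rose by 0.77 ± 0.13 (SE; edgeR adjusted p = 0.0022), from 106 to 123 CPM in the untreated to 151 to 235 CPM in the treated libraries. Znrf3, the related ligase, had a joint log2 fold change of 0.40 that did not pass the test (edgeR adjusted p = 0.062), although it passed with upper-quartile scaling, median-of-ratios scaling, no filter on low counts, the GC and length offset and DESeq2, and without the untreated or the Rspo1-positive library of passage 6 or passage 6 as a whole (0.29 to 0.50 over all leave-outs). The Znrf3 values were 0.89 in the positive and -0.10 in the negative gate, and that difference between gates passed the test (edgeR adjusted p = 0.001).

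Of 14 Wnt receptor genes tested, 3 rose and 3 fell, each in all 6 treated libraries (8.33% of all genes tested rose and 13.6% fell), and the list's median log2 fold change was -0.08 against -0.02 for all genes tested. Fzd9 rose by 1.96 and Fzd2 by 1.03 on the log2 scale, both low, with at most 2.96 and 7.29 CPM, and the co-receptor gene Lrp5 rose by 0.46. Fzd5, at 113 to 151 CPM in the untreated and 40.8 to 74.6 CPM in the treated libraries, fell by 1.25 (edgeR adjusted p = 7.6e-05), and it shares 17.8% of its exon bases with Gm38058. The co-receptor gene Lrp6 had a joint log2 fold change of -0.76, with -0.29 in the positive and -1.23 in the negative gate.

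Of 11 tested genes for Wnt ligands and their secretion, 1 rose and 4 fell, where 8.33% of all genes tested rose and 13.6% fell. The counts were 0 and 0 with treatment as 1 term, where 289 of all 17011 genes tested rose and 196 fell. Without passage 5 they were 1 and 0, where 1221 genes were called in all. The list median was -0.19. Wnt5b rose by 1.37 ± 0.26 (SE; edgeR adjusted p = 0.0039), in all 6 treated libraries against their own passage, although the groups overlapped because untreated Wnt5b ranged from 0.985 CPM at passage 5 to 9.93 CPM at passage 10. Wnt4, a ligand gene of epithelia, had 601, 590 and 302 CPM in the untreated, 265, 205 and 178 CPM in the Rspo1-positive and 453, 459 and 331 CPM in the Rspo1-negative libraries. Its joint log2 fold change of -0.69 was not common to the gates, with -1.16 in the positive and -0.22 in the negative gate. Of the Wnt inhibitors 7 of 19 were tested, with 1 higher and 1 lower, near the 8.33% and 13.6% of all genes tested, and a median of 0.26. Shisa2, which holds Frizzled receptors inside the cell, rose by 1.96 (edgeR adjusted p = 6e-05), and Shisa3 fell by 0.93. Notum, an enzyme that removes the lipid from Wnt proteins, was low, at 0 to 0.518 CPM in the untreated and 0.426 to 1.14 CPM in the treated libraries, and its log2 fold change of 1.26 did not pass the test (edgeR adjusted p = 0.12).

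The genes of the beta-catenin destruction complex and Dishevelled did not share a change across the gates. Of 15 tested, 0 rose and 5 fell by edgeR's test in the joint comparison (0 and 6 at an unadjusted p under 0.05, and 0 and 6 by DESeq2), where 8.33% of all genes tested rose and 13.6% fell. The counts were 0 and 0 with treatment as 1 term or without passage 5. They were 0 and 2 without a passage block and 1 and 3 with the GC and length offset. Fewer of all 17011 genes tested were called there too, with 289 higher and 196 lower for treatment as 1 term. The numbers were 607 and 1105 without a passage block and 1343 and 1880 with the offset. Without passage 5, 1221 genes were called in all. Of the 5, Csnk1a1, a kinase of the complex, was the one with a lower value in all 6 treated libraries (-0.36; edgeR adjusted p = 0.036), and its call was lost without any 1 library except the untreated library of passage 10. Apc, the scaffold whose loss activates Wnt signalling in colon cancer, had 81.4, 71.4 and 97.7 CPM in the untreated, 91.6, 78.7 and 91.2 CPM in the Rspo1-positive and 23.3, 32.3 and 19.1 CPM in the Rspo1-negative libraries. Its joint log2 fold change of -0.84 came with 0.06 in the positive and -1.75 in the negative gate, a difference of 1.81 that passed the test (edgeR adjusted p = 0.00024). Gsk3b, the kinase that marks beta-catenin for degradation, likewise had -0.01 and -1.15 in the gates. Over the list the median log2 fold change was 0.03 in the positive and -0.29 in the negative gate. Across all genes, GC content correlated with the log2 fold change at 0.363 (Spearman) in the joint comparison. The correlation was 0.499 in the negative and -0.013 in the positive gate. The part of GC content in the gate differences of Apc, Gsk3b and other genes named here was not tested.

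Of 17 tested genes on the list of Wnt targets, 6 were called higher and 4 lower, against 8.33% and 13.6% of all genes tested. The list's median log2 fold change was 0.28. Axin2, Sp5, Ascl2, Tnfrsf19 and Cyr61 rose in all 6 treated libraries. Tnfrsf19, a receptor of the tumour necrosis factor family, rose by 1.17 (edgeR adjusted p = 0.034), from 0.374 to 3.11 CPM in the untreated to 1.90 to 3.95 CPM in the treated libraries, with overlap. Myc and Ccnd1, the growth regulators often named as Wnt targets, were not called, with joint log2 fold changes of 0.19 (edgeR adjusted p = 0.17) and 0.27 (edgeR adjusted p = 0.16). Myc was 0.46 in the positive and -0.08 in the negative gate, and the gates differed (edgeR adjusted p = 0.0029). Bambi, a Wnt-induced decoy receptor for TGF-beta, was lower in all 6 libraries, at -0.79.

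Of 9 tested genes that mark Wnt-dependent hepatocytes around the central vein, 4 rose and 0 fell by edgeR's test (4 and 2 at an unadjusted p under 0.05, and 4 and 0 by DESeq2), with a median of 0.12. Among all genes tested 8.33% rose and 13.6% fell. Lect2, a secreted protein and liver Wnt target, had 0.0576 to 0.167 CPM in the untreated and 1.52 to 2.68 CPM in the treated libraries. It rose by 4.36 ± 0.35 on the log2 scale (SE; edgeR adjusted p = 2.5e-05). The untreated Lect2 values were near the floor, so it passed the filter on low counts only through the treated libraries. The size of its rise rests on that low baseline. Cyp27a1, an enzyme of bile acid synthesis, rose by 0.90, Nr1i3, the nuclear receptor CAR, by 0.49 and Oat, ornithine aminotransferase, by 0.41, each in all 6 treated libraries. Glul, glutamine synthetase and the best known gene of that zone, had 413, 543 and 218 CPM in the untreated, 370, 216 and 176 CPM in the Rspo1-positive and 401, 326 and 248 CPM in the Rspo1-negative libraries. The Glul log2 fold change of -0.42 did not pass the test (edgeR adjusted p = 0.12).

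With treatment as 1 term, Axin2, Sp5, Ascl2, Tcf7, Lgr5, Rnf43, Fzd9, Fzd5, Shisa2 and Lect2 were still called, and the calls of Lgr4, Fzd2, Lrp5, Lrp6, Wnt4, Wnt5b, Tcf7l2, Apc, Gsk3b, Tnfrsf19, Bambi, Shisa3, Cyp27a1, Nr1i3 and Oat were lost, which left Lect2 as 1 called gene of the 9 pericentral genes. Without a passage block the calls of Wnt4, Wnt5b, Tnfrsf19, Cyp27a1 and Oat were lost as well, and without passage 5 those of Fzd2, Lrp5, Wnt4, Tcf7l2, Apc, Gsk3b, Tnfrsf19, Shisa3, Cyp27a1, Nr1i3 and Oat. Without passage 10 the calls of Lrp5, Tcf7l2, Gsk3b, Tnfrsf19, Shisa3, Nr1i3 and Oat were lost. These settings also lowered the calls over all genes, to 485 with treatment as 1 term and 1712 without a passage block. Without passage 5 there were 1221 and without passage 10 there were 1843. Single libraries also decided calls. The call of Lrp5 was lost without the untreated or the Rspo1-positive library of passage 5 or the untreated or the Rspo1-negative library of passage 10, with log2 fold changes from 0.40 to 0.52 over all leave-outs. The call of Tnfrsf19 was lost without any library of passage 5 or the untreated or Rspo1-positive library of passage 10 (0.74 to 1.79), that of Tcf7l2 without the untreated library of passage 10 (-0.66 to -0.52) and those of Cyp27a1 (0.67 to 1.15) and Shisa3 without the untreated library of passage 5. The call of Nr1i3 was lost without the untreated library of passage 5 or 10, and that of Oat without 6 of the 9 libraries, the lowest value being 0.29 without the untreated library of passage 10.

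The 14 largest rises and 14 largest falls among genes with a mean log2 CPM above 2 held other classes as well. After Axin2 and Sp5 the largest rise was that of Col14a1, a fibril-associated collagen (chr15:55307750-55520803, plus strand). Col14a1 had 0.677, 5.62 and 2.5 CPM in the untreated, 56.8, 143 and 73.3 CPM in the Rspo1-positive and 12.9, 55.3 and 46.6 CPM in the Rspo1-negative libraries. It rose by 4.48 ± 0.30 on the log2 scale (SE; edgeR adjusted p = 1.2e-05), more in the positive than in the negative gate, by 1.40. Sbspon, a secreted matrix protein, and Cdo1, the enzyme that oxidises cysteine, rose alike in the gates. Sbspon had 1.66 to 3.85 CPM in the untreated and 16.4 to 33.8 CPM in the treated libraries and a log2 fold change of 3.03, and Cdo1 had 1.72 to 3.81 and 16.3 to 22.9 CPM and a log2 fold change of 2.98. The gates were within 0.01 for Sbspon and 0.02 for Cdo1. Gm37509, on the other strand, covers 72.8% of the Sbspon exon bases and rose by 2.91. The strand setting of the counting was not given in the sources used here, so these 2 genes cannot be told apart. Pgc, the stomach protease precursor pepsinogen C, had 2.22, 3.58 and 8.69 CPM in the untreated and 17.9 to 60.1 CPM in the treated libraries and rose by 2.85 ± 0.18 (SE; edgeR adjusted p = 1.2e-05).

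The other 8 of the 14 largest rises were Gm37509 and 7 genes of cell division: Iqgap3 (3.17), Pimreg (2.89), Espl1 (2.81), Kif18b (2.79), Aurkb (2.68), Pbk (2.59) and Spc24 (2.58), in log2 fold change. In these 7 the gates differed, each with the larger rise in the positive gate. All 14 had treated libraries above every untreated library. This follows in large part from the choice of the largest rises with all 6 libraries on the same side, and is no separate result. The genes just outside the 14 were Cyp1b1 at 2.58 and Birc5 at 2.51.

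**Figure D2:**
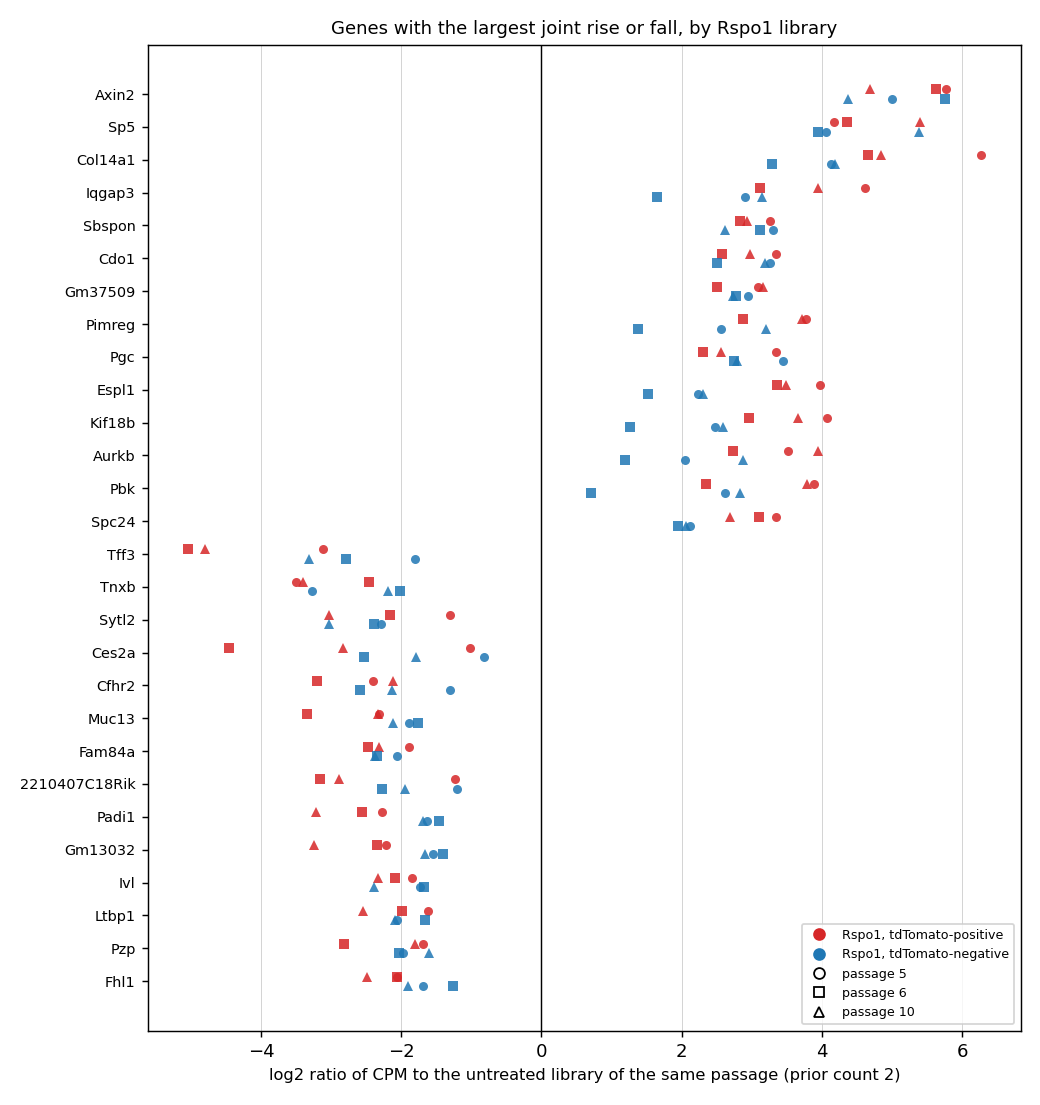
Log2 ratio of CPM in each of the 6 Rspo1 libraries to the untreated library of the same passage, for the 14 genes with the largest joint rise and the 14 with the largest joint fall, with colours for the gate and symbols for the passage. The genes were chosen with all 6 points on the same side of 0, and the cell division genes from Iqgap3 to Spc24 show the positive gate to the right of the negative gate, while Sbspon, Cdo1 and Fam84a show the gates together.

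The largest falls were led by Tff3, a trefoil peptide secreted with mucus (chr17:31125306-31129646, minus strand). Tff3 had 513, 691 and 485 CPM in the untreated, 59.1, 20.9 and 17.4 CPM in the Rspo1-positive and 147, 99.9 and 48.9 CPM in the Rspo1-negative libraries. It was lower in all 6 treated libraries without overlap and fell by 3.52 ± 0.26 on the log2 scale (SE; edgeR adjusted p = 1.5e-05), further in the positive gate (-4.35) than in the negative gate (-2.70). Tnxb, the matrix glycoprotein tenascin X, had 66.8, 23.0 and 43.2 CPM in the untreated and 4.03 to 9.40 CPM in the treated libraries and fell by 2.84 ± 0.20 (SE; edgeR adjusted p = 1.4e-05). Sytl2, a tether of secretory vesicles, fell by 2.36 and was the only one of the 14 whose groups overlapped, since the untreated library of passage 10 (26.0 CPM) lay just below the Rspo1-positive library of passage 5 (26.3 CPM). Against their own passage all 6 treated Sytl2 values were lower, as the choice of genes required. That choice also accounts in large part for the lack of overlap in the other largest falls.

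Among the remaining falls Ces2a, a carboxylesterase, fell by 2.31 and lost its call with treatment as 1 term, the only one of the 28 largest changes to lose a call under any of the 19 alternatives. Cfhr2, of the complement factor H family (-2.28), Muc13, a transmembrane mucin (-2.27), Ivl, the cornified envelope protein involucrin (-2.02), Ltbp1, which binds latent TGF-beta (-1.99), Pzp, a protease inhibitor (-1.98), and Fhl1, a LIM domain protein (-1.91), were lower in every treated library. Fam84a had 12.4, 13.0 and 13.9 CPM in the untreated and 2.29 to 3.32 CPM in the treated libraries, with little spread in either group, and fell by 2.27 ± 0.14 (SE; edgeR adjusted p = 1.2e-05). Padi1, an enzyme that turns arginine into citrulline, fell by 2.13, and it shares 32.0% of its exon bases with Gm13032 on the other strand, which fell by 2.07. The reads of Padi1 and Gm13032 cannot be told apart there, since the strand setting of the counting is not given in the sources used here. The 14th was 2210407C18Rik at -2.14, and the genes just outside were Sytl5 and Gsta1, both at about -1.90 (-1.91 and -1.90).

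Genes of DNA replication rose in both gates. Of 46 tested, 41 rose and 0 fell by edgeR's test (also 41 and 0 at an unadjusted p under 0.05 and by DESeq2), 37 of them in all 6 treated libraries. In the joint comparison 8.33% of all genes tested rose and 13.6% fell, and 6.73% were called and higher in all 6. The list median was 1.09 on the log2 scale with both gates, 1.36 in the positive and 0.91 in the negative gate. By itself the positive gate gave 44 rises, where 6.44% of all genes tested rose and 6.77% fell, and the negative gate 35 rises and 1 fall, where 15.5% of all genes rose and 20% fell. Mcm5 had 19.8, 22.2 and 9.38 CPM in the untreated, 106, 78.6 and 74.9 CPM in the Rspo1-positive and 101, 50.2 and 63.9 CPM in the Rspo1-negative libraries. It rose by 2.22 ± 0.23 (SE; edgeR adjusted p = 9e-05), and the difference between gates, 0.29, did not pass the test (edgeR adjusted p = 0.34). Uhrf1, which carries DNA methylation through replication, had 9.27 to 15 CPM in the untreated and 33.9 to 79.8 CPM in the treated libraries and rose by 2.12. Cdc6, which loads the helicase, rose by 1.61 ± 0.24 (SE; edgeR adjusted p = 0.00095). Its lowest treated value, 7.37 CPM in the Rspo1-negative library of passage 6, stood close to the 6.42 CPM of the untreated library of that passage. E2f7, a repressor of the E2F family, had 0.432 to 0.970 CPM in the untreated and 1.36 to 6.45 CPM in the treated libraries and rose by 3.18 in the positive and 1.39 in the negative gate. Rrm2, the ribonucleotide reductase subunit, rose by 0.52 (edgeR adjusted p = 0.02), in all 6 libraries against their own passage but with overlap between the groups.

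Genes of mitosis also rose in both gates, with a large difference between them. Of 54 tested, 51 rose and 0 fell by edgeR's test (also 51 and 0 at an unadjusted p under 0.05 and by DESeq2), 41 of them in all 6 treated libraries. Among all genes tested 8.33% rose and 13.6% fell, and 6.73% were called and higher in all 6. The list median was 1.87 with both gates, 2.76 in the positive and 1.03 in the negative gate, and 53 of the 54 were higher in the positive than in the negative gate while 1 was lower, where 21.5% and 17.4% of all genes tested were. By itself the positive gate gave 53 rises, where 6.44% of all genes tested rose. The negative gate gave 39 rises and 2 falls, where 15.5% of all genes tested rose and 20% fell. Espl1, separase, had 1.32, 4.92 and 2.36 CPM in the untreated, 21.6, 51.1 and 27.1 CPM in the Rspo1-positive and 6.41, 14.2 and 11.9 CPM in the Rspo1-negative libraries. It was ordered untreated, negative gate, positive gate at every passage and rose by 2.81 ± 0.19 (SE; edgeR adjusted p = 1.2e-05). Ccnb1, the cyclin of mitotic entry, rose by 2.40 without overlap of the groups, from 0.985 to 4.31 CPM to 4.55 to 25.7 CPM.

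Top2a and Mki67, which are used as markers of dividing cells, rose jointly but unequally. Top2a had 13.0, 36.8 and 13.6 CPM in the untreated, 124, 188 and 141 CPM in the Rspo1-positive and 22.6, 44.4 and 31.4 CPM in the Rspo1-negative libraries, with log2 fold changes of 2.98 in the positive and 0.73 in the negative gate (edgeR adjusted p = 5.8e-06 and 0.012). Mki67 had 9.79, 21.5 and 25.0 CPM in the untreated, 147, 280 and 232 CPM in the Rspo1-positive and 13.0, 39.8 and 21.3 CPM in the Rspo1-negative libraries. In the negative gate Mki67 was above its untreated library at passages 5 and 6 and below it at passage 10, and its log2 fold change of 0.36 did not pass the test (edgeR adjusted p = 0.17). Its joint log2 fold change of 1.97 (edgeR adjusted p = 4.8e-05) is therefore not part of the common set, and the difference between gates, 3.23, passed the test (edgeR adjusted p = 2.8e-05). The other called mitosis genes outside the common set were Kif11, Ncapg, Kif20b, Plk4, Cenpf, Knl1, Smc2, Ttk and Cenpe, and those not called were Pttg1, Kif23 and Smc4. The joint log2 fold change of Smc4, a condensin subunit, was -0.12, with 1.10 in the positive and -1.35 in the negative gate.

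**Figure D3:**
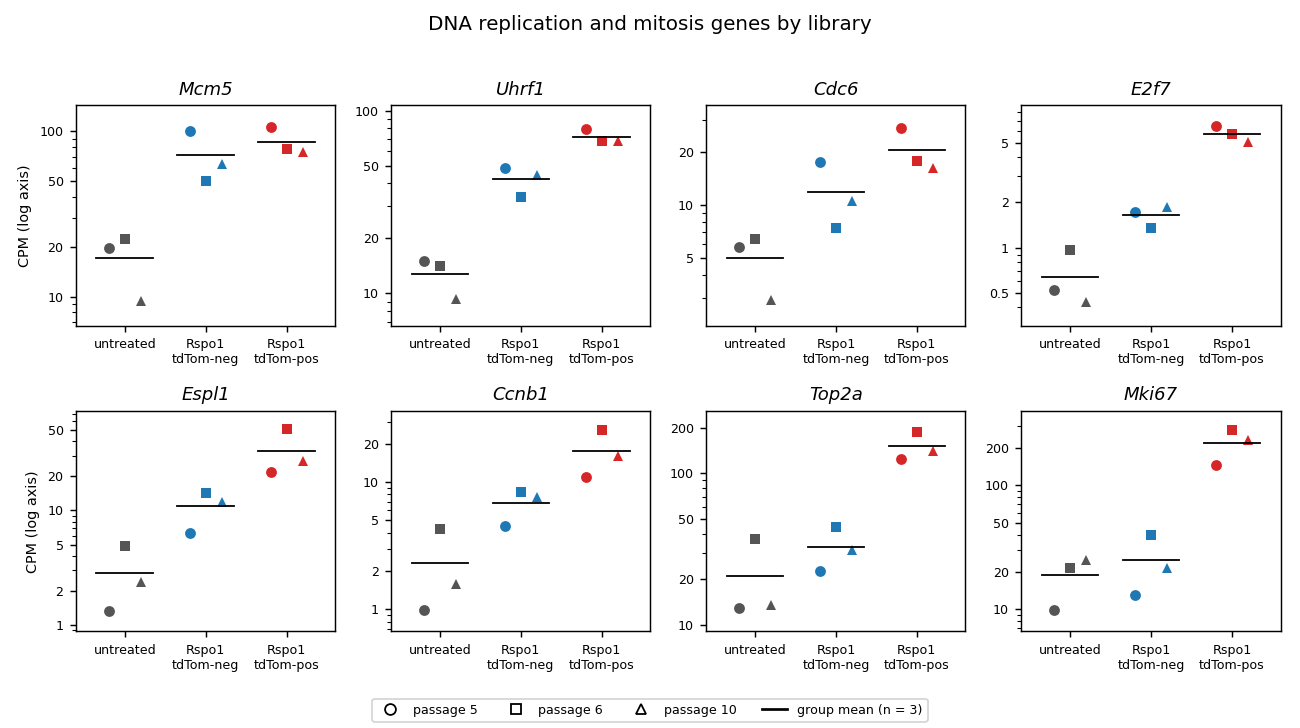
CPM on log axes of 4 DNA replication genes (top) and 4 mitosis genes (bottom) in each library, by group on the horizontal axis, with symbols for the passage and a line for the mean of 3 libraries. The negative gate stands close to the positive gate for Mcm5 and close to the untreated libraries for Mki67.

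By passage, the median log2 ratio of the mitosis genes to the untreated library was 2.91, 2.46 and 2.91 in the positive and 1.15, 0.57 and 1.32 in the negative gate at passages 5, 6 and 10. Passage 6 had the smallest ratios in both gates, and the untreated library of passage 6 had the highest untreated value for Espl1, Ccnb1 and Top2a, while the untreated value of Mki67 was highest at passage 10. With treatment as 1 term, 21 of the 46 replication and 20 of the 54 mitosis genes were called, all higher. That setting called 289 of all 17011 genes tested higher and 196 lower. In it the calls of Cdc6, E2f7, Rrm2, Top2a and Mki67 were lost while those of Mcm5, Uhrf1, Espl1 and Ccnb1 remained. The call of Rrm2 was also lost without the Rspo1-negative library of passage 5, the untreated library of passage 10, passage 10 as a whole or the passage block (0.42 to 0.67 over all leave-outs). In bulk RNA of sorted cells, more cells in cycle and more of these transcripts per cell cannot be told apart.

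Cell cycle inhibitors and p53 target genes moved in both directions, with 5 of 26 higher, 7 lower and a median of 0.01, where 8.33% of all genes tested were higher and 13.6% lower. Both counts were 0 with treatment as 1 term, where 289 of all 17011 genes tested were higher and 196 lower. Cdkn2c, an inhibitor of the G1 kinases, rose by 1.34 ± 0.21 (SE; edgeR adjusted p = 0.0012), and Gdf15, a secreted stress protein, by 1.12 ± 0.21 (SE; edgeR adjusted p = 0.0035). Cdkn1b, the inhibitor p27, had 44.1 to 45.7 CPM in the untreated and 30.6 to 41.4 CPM in the treated libraries and fell by 0.37 (edgeR adjusted p = 0.018), a call that was lost with the GC and length offset and, among other leave-outs, without the untreated or Rspo1-positive library of passage 5 or any library of passage 10 (-0.40 to -0.32 over all leave-outs). Cdkn1a, the inhibitor p21 and a leading p53 target, was not called at -0.13 (edgeR adjusted p = 0.48), and its untreated values spread from 58.7 CPM at passage 10 to 279 CPM at passage 5. Trp53inp1, another p53 target, was lower in all 6 treated libraries (-0.81), with -0.25 in the positive and -1.38 in the negative gate. With treatment as 1 term the calls of Cdkn2c, Gdf15, Cdkn1b and Trp53inp1 were lost.

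Of 20 tested genes of trefoil peptides, mucins and gastric secretion, 10 fell, each in all 6 treated libraries, and 3 rose, where 13.6% of all genes tested fell and 8.33% rose. The list median was -0.68. All 3 trefoil genes fell. Tff1 had 41.8, 26.6 and 16.7 CPM in the untreated and 4.20 to 15.6 CPM in the treated libraries and fell by 1.58 ± 0.11 on the log2 scale (SE; edgeR adjusted p = 1.5e-05), and it shares 31.4% of its exon bases with Gm15318. Tff2 had 373, 807 and 483 CPM in the untreated, 140, 137 and 120 CPM in the Rspo1-positive and 264, 304 and 213 CPM in the Rspo1-negative libraries and fell by 1.53 ± 0.16 (SE; edgeR adjusted p = 0.00011). In both genes treated and untreated libraries did not overlap, and the fall was larger in the positive gate. On the FPKM scale the levels in untreated cells were 968 to 1377 for Tff3, 630 to 1358 for Tff2 and 34.3 to 86.2 for Tff1. In treated cells Tff3 had 34.2 to 307 FPKM and Tff2 200 to 520 FPKM, so Tff2 had the higher level of the pair in each treated group.

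Muc13 had 17.0, 25.9 and 62.4 CPM in the untreated and 2.5 to 14.4 CPM in the treated libraries and fell by 2.27 ± 0.18 (SE; edgeR adjusted p = 2.1e-05). Psca, a small surface protein of secretory epithelia, had 96.5, 13.8 and 21.3 CPM in the untreated, 17.3, 2.29 and 4.90 CPM in the Rspo1-positive and 43.1, 5.97 and 14.7 CPM in the Rspo1-negative libraries. The Psca level fell by 1.68 against the same passage although the groups overlapped. Muc4, a membrane mucin, fell by 1.5 (edgeR adjusted p = 0.005) and was the reverse of the trefoil genes between the gates, with -0.85 in the positive and -2.15 in the negative gate. The 3 risers were Pgc, described above, Agr2, a chaperone of mucin folding (0.69; edgeR adjusted p = 0.031), and Spdef, a goblet cell factor (0.72), which was not higher in all 6 libraries and lost its call under 13 of the 19 alternatives. With treatment as 1 term 4 of the 10 falls and 1 of the 3 rises were called. That setting called 196 of all 17011 genes tested lower and 289 higher. In it the calls of Tff2, Psca, Muc4 and Agr2 were lost. The call of Agr2 was also lost without any library of passage 5, the Rspo1-positive library of passage 6 or the Rspo1-negative library of passage 10 (0.38 to 0.92 over all leave-outs), and that of Muc4 without passage 5 as a whole.

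**Figure D4:**
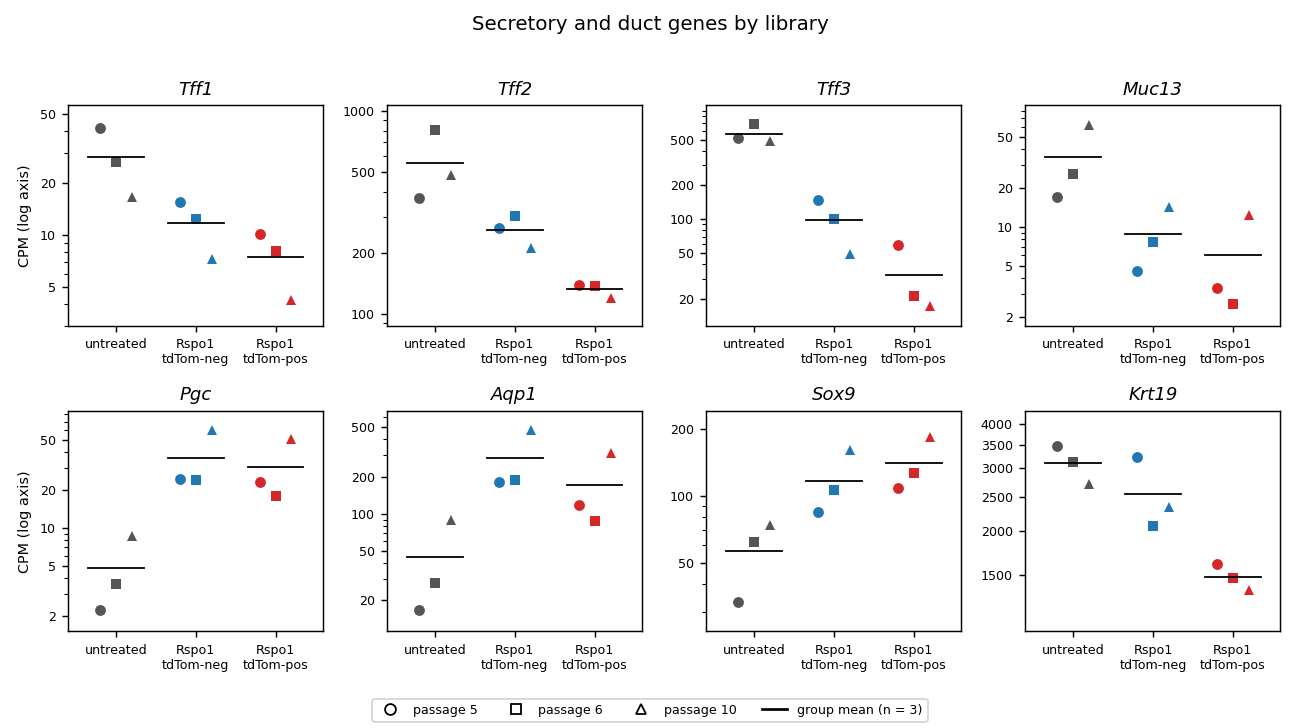
CPM on log axes of 8 secretory and duct genes in each library, by group on the horizontal axis, with symbols for the passage and a line for the mean of 3 libraries. Tff1, Tff2, Tff3 and Muc13 fall from untreated to treated libraries, Pgc, Aqp1 and Sox9 rise, and Krt19 is lowest in the positive gate.

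Duct genes changed in both directions, with 6 of 31 tested higher and 10 lower, against 8.33% and 13.6% of all genes tested. Each of the 10 was lower in all 6 treated libraries, where 8.04% of all genes tested were called and lower in all 6. The list median was -0.22. With treatment as 1 term 2 were higher and 3 lower, where 289 of all 17011 genes tested were higher and 196 lower. Aqp1, the water channel of bile ducts, had 16.6, 27.7 and 89.9 CPM in the untreated, 118, 88.0 and 307 CPM in the Rspo1-positive and 180, 189 and 476 CPM in the Rspo1-negative libraries. It rose by 2.45 ± 0.20 (SE; edgeR adjusted p = 2.6e-05), more in the negative gate, and its overlap between groups came from the untreated library of passage 10. Sox9, a transcription factor of duct and progenitor cells, had 33.5, 61.7 and 74.0 CPM in the untreated and 84.7 to 184 CPM in the treated libraries and rose by 1.21 ± 0.13 (SE; edgeR adjusted p = 0.00011). Krt19, a keratin of duct cells, had 3456, 3127 and 2711 CPM in the untreated, 1617, 1472 and 1368 CPM in the Rspo1-positive and 3232, 2069 and 2333 CPM in the Rspo1-negative libraries. Its joint log2 fold change was -0.68 (edgeR adjusted p = 0.0058), with -1.06 in the positive gate and -0.30, which did not pass the test (edgeR adjusted p = 0.18), in the negative gate. Onecut2, a transcription factor of early liver and duct development, was lower in all 6 libraries at -1.56 (edgeR adjusted p = 0.00031), and Cftr, the chloride channel, was higher in the positive gate at 1.59 and at 0.06 in the negative gate.

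Of 18 tested hepatocyte genes 2 rose and 4 fell, near the 8.33% and 13.6% of all genes tested, with a median of -0.23. The counts were 1 and 1 without a passage block, where 607 of all 17011 genes tested rose and 1105 fell. With treatment as 1 term they were 0 and 0, where 289 of all genes rose and 196 fell. Differentiation medium for such organoids is meant to raise hepatocyte genes. Alb, albumin, had 3.91 to 12.4 CPM in the treated and 9.05 to 15.3 CPM in the untreated libraries, with a joint log2 fold change of -0.74 (edgeR adjusted p = 0.024). Albumin was not in the common set, at -1.07 in the positive and -0.41 in the negative gate, where it did not pass the test (edgeR adjusted p = 0.2). Hnf4a, the hepatocyte transcription factor, had 192 to 281 CPM in the untreated and 123 to 183 CPM in the treated libraries and fell by 0.52 ± 0.10 (SE; edgeR adjusted p = 0.0047). Ambp, a secreted plasma protein precursor, fell by 1.41 ± 0.15 (SE; edgeR adjusted p = 0.00011), from 88.8 to 179 CPM in the untreated to 28.4 to 74.3 CPM in the treated libraries. Trf, transferrin, was higher in all 6 libraries against their own passage, at 1.10 (edgeR adjusted p = 0.0066), and shares 63.5% of its exon bases with Gm20425. The calls of Alb, Hnf4a, Trf, Ambp, Krt19, Onecut2 and Cftr were lost with treatment as 1 term, and those of Alb, Hnf4a and Trf also without a passage block. The call of Alb was lost without any library of passage 6 (-0.98 to -0.35 over all leave-outs) and that of Trf without the untreated library of passage 5 (0.84 to 1.49). Leaving out passage 5 as a whole ended the calls of Alb, Trf, Krt19 and Cftr, and leaving out passage 10 those of Hnf4a, Trf and Krt19.

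**Figure D5:**
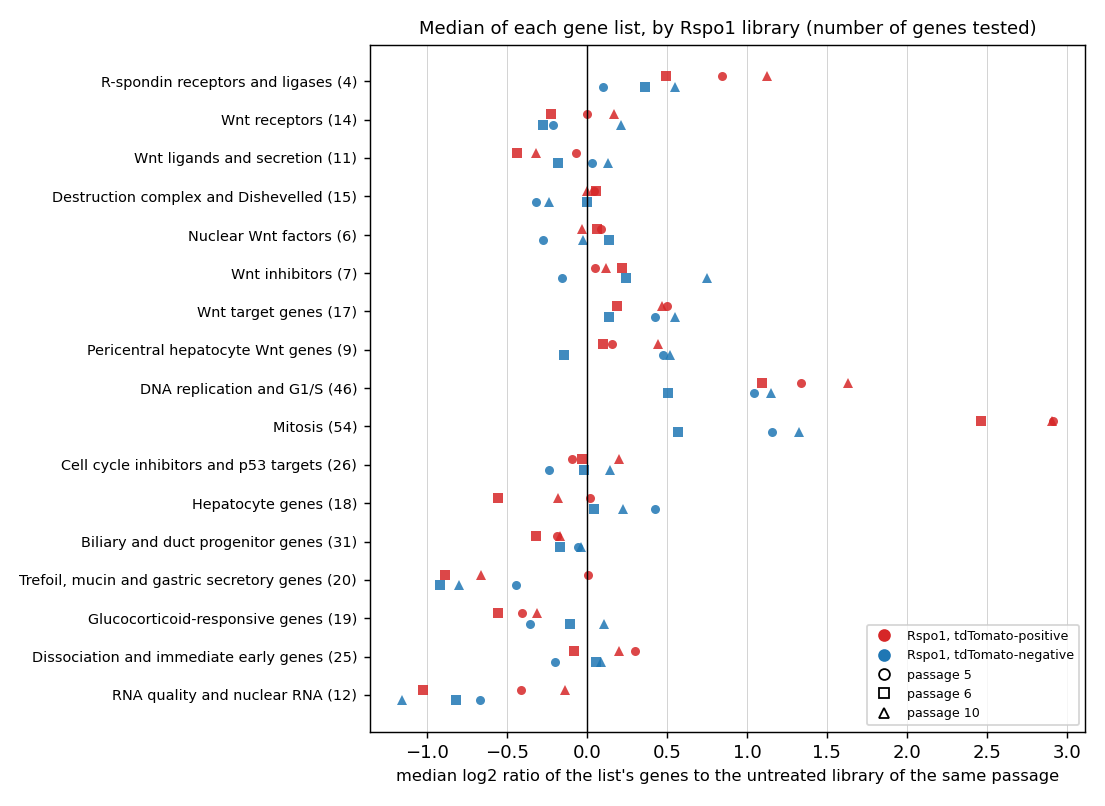
Median log2 ratio to the untreated library of the same passage over the genes of each list, for each of the 6 Rspo1 libraries, with the number of genes tested in brackets, colours for the gate and symbols for the passage. The mitosis and replication lists lie to the right of 0 in all 6 libraries, with medians from 0.57 to 2.91 for mitosis, and the trefoil and mucin list lies left of 0 in all libraries but the Rspo1-positive library of passage 5, at 0.01.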

How the data were processed

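RNA was sequenced as single-end 75 bp reads from 100 ng of total RNA of sorted cells, per the labels' protocols. For 32137 genes the authors deposited raw counts and, beside them, FPKM values, per the file headers. The submitters' processing notes name Trimmomatic 0.35, FastQC 0.11.2, STAR 2.5.1b, featureCounts, DESeq2 and the build GRCm38. The strand setting and the annotation were not given in the sources used here. The third replicate carries the number 4 in its column names and was matched by its file. The authors' DESeq2 tables were not used here.

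Counts were fitted in R 4.3.3 with edgeR 4.0.16: the filter on low counts (filterByExpr by group, at 10 counts and a total of 15) left 17011 genes, followed by TMM scaling, 1 term per group, passage as a block, and the quasi-likelihood F-test of the mean of the 2 Rspo1 groups minus the untreated group, with Benjamini-Hochberg adjustment over all 17011 genes. The standard error is the log2 fold change divided by the square root of F. CPM use TMM-scaled library sizes. Log2 ratios of single libraries use a prior count of 2. FPKM entered no test. Gene positions and exon overlaps come from a GENCODE annotation of GRCm38, and 58 of the 90 genes named with values have a RefSeq promoter window.

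Replicate numbers are passages of the same line, per the labels. After removal of group means, libraries of the same passage correlated at 0.123 to 0.573 (9 pairs) and those of different passages at -0.476 to 0.0826 (18 pairs). Removal of group means makes the values within a group cancel out, so the contrast between these ranges is partly built in. Same-numbered libraries were treated as paired, as the labels give them the same passage.

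Genes named by size are the 14 largest rises and the 14 largest falls with an adjusted p under 0.05, a mean log2 CPM above 2 and all 6 Rspo1 libraries on the same side. Other named genes are examples of the 17 gene lists or of 6 marker lists. The lists and members were chosen with earlier results of these data known. The alternatives were 19: no block, treatment as 1 term, 2 other scalings, no filter, an offset for GC content and length (spline of 5 degrees of freedom), DESeq2 1.42.0, and leaving out each of 9 libraries and 3 passages. Total counts were 23423979 to 37351448 per library.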

Additional observations from a re-analysis of the deposited data

Results flagged for a closer look

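Of the 90 genes named with values, 51 differed between the 2 Rspo1 gates by edgeR's test of that difference (adjusted p under 0.05), against 38.9% of all genes tested. The 90 genes were chosen with these data known, so the count is a description and no test against that share. Values in brackets are Rspo1-positive minus Rspo1-negative on the log2 scale, and the causes were not tested. Genes of cell division and DNA replication were higher in the positive gate: Iqgap3 (1.33), Pimreg (1.05), Espl1 (1.59), Kif18b (1.46), Aurkb (1.35), Pbk (1.26), Spc24 (1.01), Uhrf1 (0.77), Cdc6 (0.80), E2f7 (1.79), Rrm2 (0.52), Mki67 (3.23), Top2a (2.25), Ccnb1 (1.31). The cell cycle inhibitor gene Cdkn2c (0.83) was also higher in the positive gate. Col14a1 was higher there as well (1.40). Among Wnt pathway genes the differences were Znrf3 (0.99), Lgr4 (0.55), Lrp5 (-0.41), Fzd5 (0.52), Lrp6 (0.94), Wnt4 (-0.94), Apc (1.81), Gsk3b (1.14), Tcf7l2 (0.86), Prox1 (1.0), Bambi (-0.93), Myc (0.55). Secretory genes gave Tff3 (-1.64), Tff1 (-0.67), Tff2 (-0.96), Muc13 (-0.69), Psca (-1.43), Muc4 (1.31), and other fallers gave Padi1 (-1.05), Gm13032 (-1.01), Fhl1 (-0.58). Duct and hepatocyte genes gave Aqp1 (-0.77), Cftr (1.53), Krt19 (-0.76), Krt7 (-0.64), Onecut2 (1.54), Alb (-0.66), Ambp (-1.11). The p53 targets Trp53inp1 and Cdkn1a gave 1.13 and -0.45, the glucocorticoid genes Sgk1 and Nr3c1 gave -0.48 and 0.89, and the immediate early genes Fosb, Egr1 and Jun gave 3.38, 2.22 and 0.91.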

How the results depend on the processing

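Over the 19 alternatives no named gene reversed its direction where called. Of the 28 genes named by size 27 kept their side of the threshold throughout, and of the 62 list examples 18 did. Without a passage block (no replicate block), 1712 genes were called jointly, 1318 of them with all 6 libraries on the same side, and 886 were called for the positive gate, 3724 for the negative gate and 4141 between the gates. With treatment as 1 term 485 genes were called, and 485 of these had all 6 libraries on the same side; the error of that fit includes the difference between gates by construction. With the GC and length offset 2959 genes were called for the positive gate, 3828 for the negative gate and 4106 between the gates. Without that offset the Spearman correlation across genes of GC content with the log2 fold change was 0.363 in the joint comparison. It was 0.499 for the negative and -0.013 for the positive gate (genes are not independent replicates). Upper-quartile scaling, median-of-ratios scaling, no filter on low counts and DESeq2 kept the joint count within 1.5 times, at 3713, 3705, 4364 and 3931. Leaving out 1 library or 1 passage gave 1221 to 5350 joint calls, 4229 to 6166 genes with all remaining treated libraries on the same side (fewer libraries have to lie on the same side), and 1144 to 3590 genes with both. It gave 1112 to 2519 calls for the positive gate, 3229 to 7427 for the negative gate and 3674 to 8264 between the gates. The highest joint count came without passage 6 and the lowest without passage 5, and the cause was not tested.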

Other observations

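All groups received dexamethasone, a glucocorticoid. Of 19 tested genes on a list of glucocorticoid-responsive genes, 0 rose and 7 fell by edgeR's test in the joint comparison (0 and 10 at an unadjusted p under 0.05, and 0 and 9 by DESeq2), where 8.33% of all genes tested rose and 13.6% fell. Of the 7 falls 3 were in all 6 treated libraries, and 12 of the 19 genes were not called. The falls numbered 3 without a passage block and 1 with treatment as 1 term, where 1105 and 196 of all 17011 genes tested fell. They numbered 3 without the untreated library of passage 5, 2 without passage 5 and 4 without the Rspo1-positive library of passage 6. In those 3 settings 1959, 1221 and 2417 genes were called in either direction. The list median was -0.36 on the log2 scale with both gates, -0.55 in the positive and -0.09 in the negative gate, against -0.02 for all genes in the joint comparison. By itself the positive gate gave 0 rises and 6 falls, where 6.44% of all genes tested rose and 6.77% fell. The negative gate gave 2 rises and 5 falls, near the 15.5% and 20% of all genes tested that rose and fell there. Fkbp5, a chaperone partner of the glucocorticoid receptor, had 680, 591 and 411 CPM in the untreated libraries of passages 5, 6 and 10 and 216 to 401 CPM in the treated libraries, without overlap (log2 fold change -0.83; edgeR adjusted p = 0.00084). Sgk1, a kinase induced by glucocorticoids, was lower in all 6 treated libraries against their own passage (-0.89; edgeR adjusted p = 0.00092), a call that was lost without a passage block and with treatment as 1 term. Nr3c1, the receptor itself, was at -0.21 in the positive and -1.10 in the negative gate, and its joint call was lost with treatment as 1 term and without passage 5.

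Immediate early genes, which cell dissociation also induces, were called in both directions, with 9 of 25 tested higher, 5 lower and 4 of each in all 6 treated libraries, where 8.33% of all genes tested were higher and 13.6% lower. The counts were 1 and 3 without a passage block, where 607 of all 17011 genes tested were higher and 1105 lower. With treatment as 1 term they were 0 and 0, where 289 of all genes were higher and 196 lower. Fosb, a subunit of the transcription factor AP-1, had 11.5, 0.803 and 2.99 CPM in the untreated, 94.3, 21.2 and 38.8 CPM in the Rspo1-positive and 8.65, 2.67 and 3.22 CPM in the Rspo1-negative libraries. Its joint log2 fold change of 1.92 came from the positive gate (3.61), while the negative gate was at 0.23 (edgeR adjusted p = 0.57). Fosb, Egr1 and Jun were each called jointly without all 6 libraries on the same side, and their joint calls were lost without a passage block and with treatment as 1 term.

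Of 12 tested genes on a list of RNA quality and nuclear RNA, 2 were called higher and 7 lower, against 8.33% and 13.6% of all genes tested. The counts were 1 and 3 without a passage block, where 607 of all 17011 genes tested were higher and 1105 lower. Once GC content and length were offset they were 2 and 4, against 1343 and 1880 of all genes. With treatment as 1 term they were 0 and 0, against 289 and 196 of all genes. The 7 were mt-Nd1, mt-Nd2, mt-Nd4, mt-Nd5, mt-Cytb, Malat1 and Meg3, with log2 fold changes from -1.41 (Meg3) to -0.82 (mt-Nd1), and their part in other results was not tested.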
